A study of Mus musculus with 4 samples.

Results

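The Gadd45 genes (growth arrest and DNA damage) were followed through 4 RNA-seq libraries of mouse retina, from mice injured by diphtheria toxin and from control mice. The genes are Gadd45a, Gadd45b and Gadd45g, which encode 3 related proteins, and Gadd45gip1, which encodes a protein that binds them. These 4 of the 22558 gene symbols in the files were selected by name, with their response in these libraries already known, so the differences below describe the genes and test nothing. All 4 were measured in both control libraries and in the day 5 toxin library. Gadd45b and Gadd45g were also measured in the day 1 toxin library, for which 5799 symbols were analysed.

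The tissue was whole retina of mice about 8 weeks old, on a mixed C57BL/6 and 129 background. Every mouse carried 1 R26R-DTA allele, from which a cell makes the A fragment of diphtheria toxin (DTA) once the recombinase Cre has acted in it. The injured mice, Msi1-CreERT2/+ with R26R-DTA/+, also had a ligand-dependent Cre from the Musashi gene Msi1. The controls, +/+ with R26R-DTA/+, had no Cre, so they carried the toxin allele but not the recombinase. Retinas were taken at day 1 or day 5 after injury, giving the groups control day 1, DTA day 1, control day 5 and DTA day 5. The labels do not state the ligand, its dose, the cells that recombined or the number of mice per library, so separate animals cannot be assumed.

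Gadd45 proteins are small nuclear and cytoplasmic proteins with no known enzyme activity, and they act by binding others. They bind and activate the kinase MAP3K4 (MEKK4), which feeds the p38 and JNK stress kinases, and they bind the cell cycle proteins CDK1, PCNA and p21. They have also been tied to DNA repair and to active DNA demethylation. The genes are switched on rapidly by stress, each by its own signals: Gadd45a is a classic p53 target, Gadd45b a target of NF-kappa B and transforming growth factor beta and an activity-induced gene in neurons, and Gadd45g a cytokine-induced gene. Gadd45gip1, also called CRIF1, is a part of the large subunit of the mitochondrial ribosome as well as a Gadd45 binding protein.

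Per the file loci and the GENCODE annotation of the same mouse build (mm9, NCBIM37), Gadd45a lies on the minus strand of chromosome 6 (66985090 to 66987401). Gadd45b lies on the plus strand of chromosome 10 (80392836 to 80394949), Gadd45g on the plus strand of chromosome 13 (51942044 to 51943843) and Gadd45gip1 on the plus strand of chromosome 8 (87356181 to 87359381). The 3 Gadd45 genes share a plan of 4 exons with coding lengths of 498, 483 and 480 bases in the order a, b, g, while Gadd45gip1 has 2 exons and a coding length of 669 bases. Aligned end to end, the coding sequences of Gadd45b and Gadd45g were identical at 64.0% of positions, those of Gadd45a and Gadd45b at 60.0% and those of Gadd45a and Gadd45g at 60.2%. Gadd45gip1 was identical to each of the 3 at 39.1% to 39.7% of positions. No stretch of 30 bases was shared between the transcripts of any of the 4 genes, and no other place in the genome matched one of them over at least 100 bases at 90% identity or more. 

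The promoters are shown as a description of the genes, and their part in the differences between libraries was not tested. Each is the 250 bases before the transcription start, 5′ to 3′ on the gene's own strand, from RefSeq on build GRCm38.p6, which is not the build of the expression files. RefSeq promoters were at hand for 3 of the 4 genes, all but Gadd45gip1. Capitals mark matches to the motifs named in the next paragraph.
Gadd45a, chr6:67037408-67037657, minus strand: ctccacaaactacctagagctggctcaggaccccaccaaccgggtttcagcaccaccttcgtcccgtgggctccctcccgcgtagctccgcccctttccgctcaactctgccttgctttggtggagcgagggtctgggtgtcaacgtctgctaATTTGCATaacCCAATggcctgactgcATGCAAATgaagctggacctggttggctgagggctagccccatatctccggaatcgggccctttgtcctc
Gadd45b, chr10:80929841-80930090, plus strand: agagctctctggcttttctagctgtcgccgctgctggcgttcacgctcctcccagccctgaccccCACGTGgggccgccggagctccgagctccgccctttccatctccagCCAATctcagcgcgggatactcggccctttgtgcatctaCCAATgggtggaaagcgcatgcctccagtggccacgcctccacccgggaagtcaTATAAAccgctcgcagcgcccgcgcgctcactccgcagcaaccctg
Gadd45g, chr13:51846425-51846674, plus strand: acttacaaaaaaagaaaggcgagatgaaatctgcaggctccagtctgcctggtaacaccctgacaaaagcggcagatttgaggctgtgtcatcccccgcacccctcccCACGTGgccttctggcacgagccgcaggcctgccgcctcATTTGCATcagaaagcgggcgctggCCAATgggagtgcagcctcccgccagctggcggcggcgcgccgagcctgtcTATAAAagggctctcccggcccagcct

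A TATA box (TATAAA) stood 46 to 41 bases before the start of Gadd45b and 27 to 22 bases before that of Gadd45g, with none in the window of Gadd45a. The same held for the E-box CACGTG, which lay 185 to 180 bases before the start of Gadd45b and 142 to 137 before that of Gadd45g. All 3 held the CCAAT box (CCAAT), at 86 to 82 bases in Gadd45a, at 139 to 135 and at 100 to 96 in Gadd45b, and at 78 to 74 in Gadd45g. The octamer ATTTGCAT occurred in Gadd45a, once on each strand (97 to 90 and 70 to 63), and once in Gadd45g (103 to 96). Searched on both strands over the same 250 bases of all 32851 RefSeq promoters, TATAAA was present in 12.4%, CACGTG in 6.02%, CCAAT in 33.8% and ATTTGCAT in 1.6%. None of the 3 windows held a cyclic AMP response element (TGACGTCA, 1.55% of promoters), an AP-1 site (TGANTCA, 6.75%), an NF-kappa B type site (1.41%) or a STAT type site (TTCNNNGAA, 7.02%). The NF-kappa B type site was searched with a narrow pattern. Other forms of that site were not searched, so their absence is not shown. No match overlapped another. The motifs were picked with these sequences in view, and a match is a run of letters and not a measured binding site. GC content of the windows was 59.2% in Gadd45a, 65.2% in Gadd45b and 62% in Gadd45g, beside a median of 52.4% over all promoters.

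Levels are in FPKM, a fragment number divided by transcript length and by library size, so they can be compared between genes. Each group is 1 library. There is no spread between mice, no standard deviation and no p-value, and every difference lacks a replicate check. Differences are of log2(FPKM + 1), which understates the change of low genes. The size rule for a call asked for a difference of 1 or more and a level of 5 FPKM or more on either side. A gene under 5 FPKM in control was therefore tested only where DTA reached 5, which favours calls of higher. Comparisons of DTA with control also had to exceed the gene's difference between the 2 controls.

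Gadd45b had the largest difference of the 4 genes at day 5 and the larger of the 2 measured at day 1. It stood at 3.56 FPKM in control day 1, 54.0 in DTA day 1, 4.32 in control day 5 and 73.9 in DTA day 5. Both toxin libraries were far above both controls, and the controls lay close together. The DTA to control ratio was 15.2 at day 1 and 17.1 at day 5, or 3.59 and 3.82 on the log2(FPKM + 1) scale. Between the controls the difference was 0.22. In these libraries the levels correspond to an estimated 334, 6771, 195 and 2704 fragments in the order control day 1, DTA day 1, control day 5 and DTA day 5, so counting error is small beside the difference.

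Among the 2623 genes at 5 FPKM or more at day 1, 10 had a larger difference than Gadd45b, and all 10 were small RNA genes by symbol. At day 5, 64 of 9895 genes had a larger one, 48 of them small RNA genes. No other gene of the 2537 tested at both days had a difference as large as that of Gadd45b at both.

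Gadd45g was higher as well, by less. It stood at 9.73 FPKM in control day 1, 31.2 in DTA day 1, 6.48 in control day 5 and 18.7 in DTA day 5. Each toxin library was above both controls, and DTA day 1 was the highest of the 4. The ratio to the control of the same day was 3.21 at day 1 and 2.88 at day 5, with differences of 1.59 and 1.39. The controls differed by -0.52 (day 5 minus day 1), and against the day 1 control the day 5 difference of Gadd45g was 0.87, under the size rule. It was also under the rule, at 0.96, when the authors' lower bound in DTA was set against their upper bound in control.

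Gadd45a, the p53 target, was the most abundant of the 3 family members in both controls. It stood at 22.2 FPKM in control day 1, 13.7 in control day 5 and 19.2 in DTA day 5. The toxin library lay between the controls, so the groups overlapped. Its day 5 difference of 0.46 was not called and was smaller in size than the difference of -0.66 between the controls. Against the day 1 control the sign turned, to -0.19.

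Gadd45gip1, the mitochondrial ribosome protein, stood at 12.9 FPKM in control day 1, 12.8 in control day 5 and 24.7 in DTA day 5. The controls were nearly equal, differing by -0.015, and the toxin library stood 1.93-fold above its control. The difference of 0.90 missed the size rule of 1. It was larger than the difference of 91.2% of the 9895 genes tested.

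**Figure D1:**
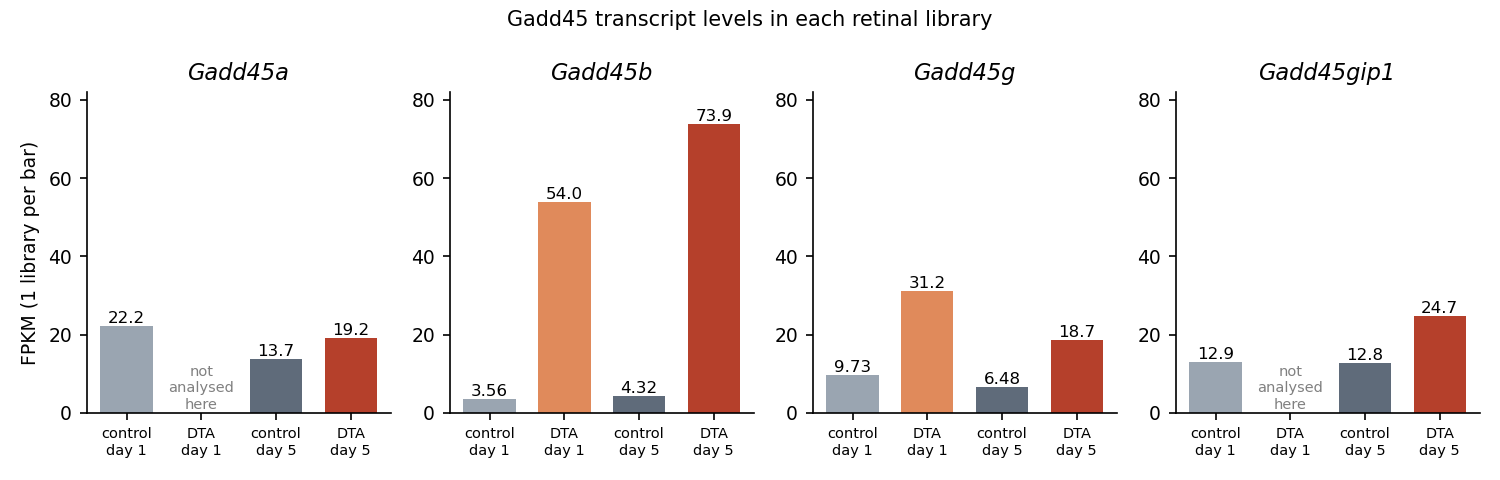
FPKM of the 4 genes (vertical axis, linear from 0, same scale in each panel) in each library, 1 bar per library. Gadd45b rises from 3.56 and 4.32 in the controls to 54.0 and 73.9 in the toxin libraries, Gadd45g from 9.73 and 6.48 to 31.2 and 18.7, while Gadd45a stays between 13.7 and 22.2; day 1 toxin values of Gadd45a and Gadd45gip1 are not analysed here.

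Of the 2 genes measured at day 1 both were called higher, and of the 4 measured at day 5 2 were, Gadd45b and Gadd45g. No member was lower. Over all genes tested at day 1, 2.67% were called, 2.06% higher and 0.61% lower, and at day 5 8.51% were, 6.74% higher and 1.77% lower. Between the controls none of the 3 members at 5 FPKM or more was called, where 2.57% of genes were, 0.858% higher and 1.72% lower. Gadd45b was under 5 FPKM in both controls and so could not be called there. The genes were selected on these comparisons, so nothing is read from their count. Scaling by the median ratio of the libraries lowered every day 5 difference by about 0.21 and left both calls, with Gadd45b at 3.61 and Gadd45g at 1.19. The median difference over all genes tested was 0.26 at day 5 and 0.05 at day 1. Of all day 5 calls 79.2% were higher, a share that became 65.6% under the median ratio and 69.2% when libraries were scaled to their sum without photoreceptor markers and abundant genes.

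**Figure D2:**
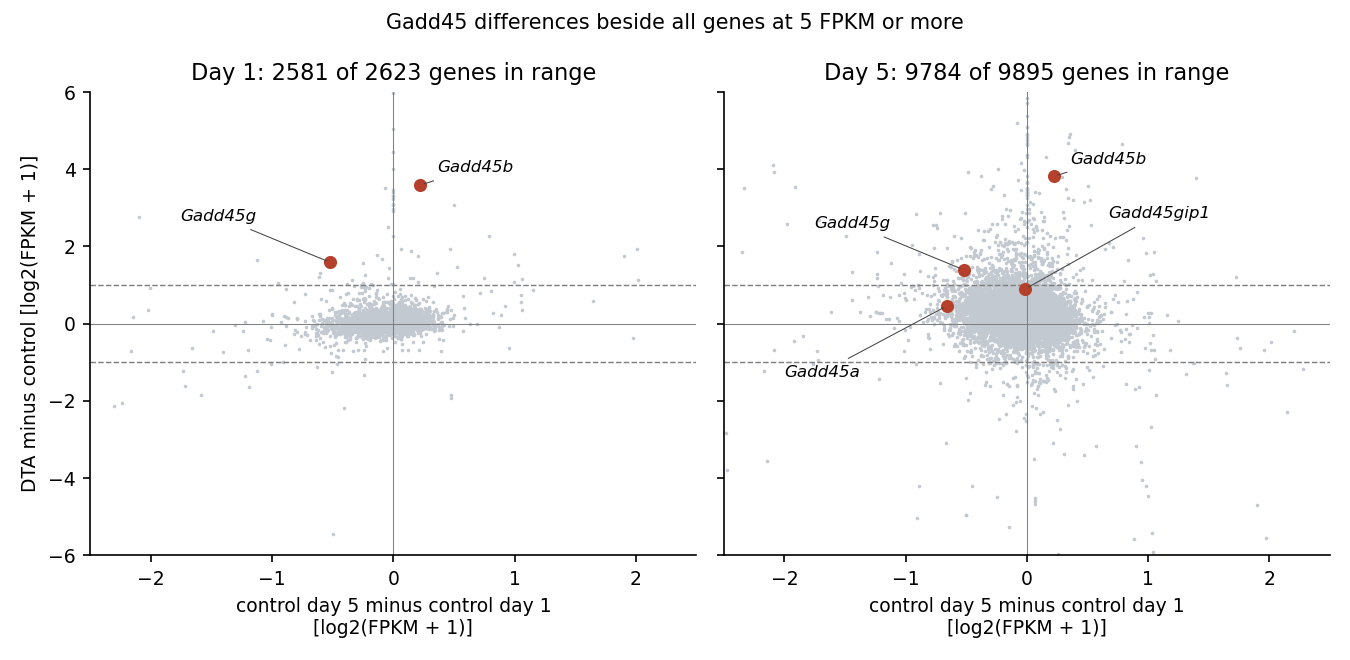
Difference between DTA and control (vertical axis) against the difference between the controls (horizontal axis), both of log2(FPKM + 1), for genes at 5 FPKM or more (grey) and the Gadd45 genes (red); dashed lines mark differences of 1 and -1. The axes share a control library, 42 genes at day 1 and 111 at day 5 are not drawn, and Gadd45b sits at 3.59 and 3.82 with a control difference of 0.22.

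The make-up of the family differed between the libraries. The summed level of Gadd45a, Gadd45b and Gadd45g was 35.4 FPKM in control day 1, 24.5 in control day 5 and 112 in DTA day 5. Gadd45a made up 62.5% and 55.9% of the sum in the controls and 17.2% in DTA day 5. Gadd45b made up 10.04% and 17.6% in the controls and 66.1% in DTA day 5. Gadd45g held 27.5%, 26.5% and 16.7% in the same libraries. The order of levels was Gadd45a, Gadd45g, Gadd45b in both controls, and in DTA day 5 it was Gadd45b first, with Gadd45a and Gadd45g close together at 19.2 and 18.7 FPKM. In DTA day 1 Gadd45b stood 1.73-fold above Gadd45g, whereas in the control of that day Gadd45g stood 2.74-fold above Gadd45b.

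**Figure D3:**
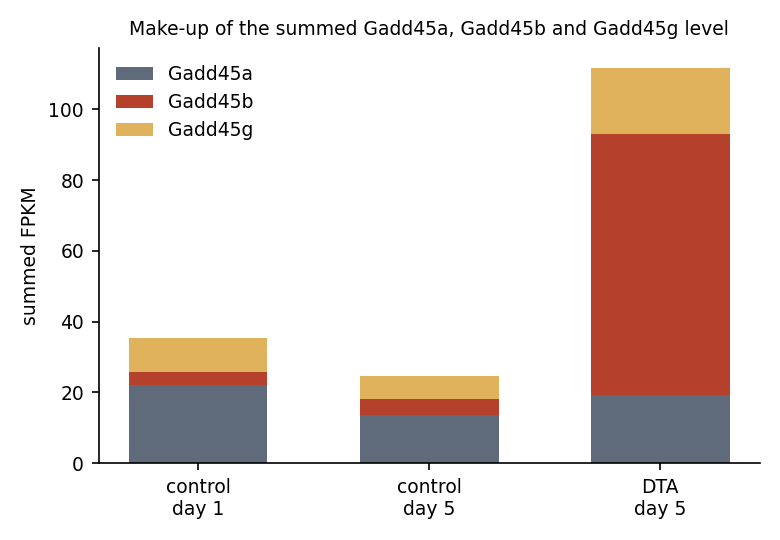
Summed FPKM (vertical axis, linear from 0) of Gadd45a, Gadd45b and Gadd45g in the 3 libraries that hold all 3 genes, 1 library per bar. The sum is 35.4 and 24.5 in the controls and 112 in DTA day 5, where Gadd45b is 66.1% of it.

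Between the 2 toxin libraries neither Gadd45b nor Gadd45g was called. Gadd45b was 1.37-fold higher in DTA day 5 than in DTA day 1, a difference of 0.45. Gadd45g was 1.67-fold lower in DTA day 5 than in DTA day 1, a difference of -0.71. The size rule was passed by 6.2% of the 2728 genes tested, 2.75% higher and 3.45% lower. With each day's control taken off, the day 5 difference minus the day 1 difference was 0.22 for Gadd45b, the same as the median of 0.22 over 2777 genes, and -0.19 for Gadd45g. Neither was called, and 6.66% of genes were, 3.64% higher and 3.02% lower. With the controls of the 2 days exchanged the value for Gadd45g was -1.23, which passed the rule, so that value rests on which control is used.

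Precision within a library was read from the authors' confidence bounds, which hold no spread between mice. For Gadd45a and Gadd45gip1 the FPKM lay inside its bounds in every library. For Gadd45b and Gadd45g the FPKM lay above its own upper bound in 5 of 8 values. Over all lines of the files this held for 17.8% in control day 1, 23.8% in DTA day 1, 10.3% in control day 5 and 10.6% in DTA day 5. Gadd45b in DTA day 1 was one, at 54.0 with bounds of 44.4 and 47.7, and Gadd45b in DTA day 5 another, at 73.9 with bounds of 60.0 and 66.8. Gadd45g stood above its bounds in control day 1 (7.42 and 9.14), DTA day 1 (24.6 and 27.3) and DTA day 5 (14.1 and 17.5). From lower bound in DTA to upper bound in control, the difference of Gadd45b was 3.31 at day 1 and 3.42 at day 5, and that of Gadd45g 1.34 at day 1.

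Some fragments at the Gadd45a locus cannot be given to one gene. Gadd45a shares 238 of its 1223 exonic bases with the transcript model E230016M11Rik on the opposite strand, which was listed at 3.96 FPKM in control day 1, 2.80 in control day 5 and 2.98 in DTA day 5. Whether the counting used strand is not stated in the labels, so reads of overlapping genes cannot be told apart. No annotated exon of another gene was found over Gadd45b or Gadd45g, and the values of Gadd45gip1 are uncertain.

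The genes with the pattern closest to that of Gadd45b were Irf1 and Socs3. Likeness was the Euclidean distance between log2(FPKM + 1) profiles, each taken relative to its own mean over 4 libraries, among 2447 genes at 5 FPKM or more. Genes without a value in DTA day 1 could not be compared, here or for Gadd45g. The nearest was Irf1, an interferon regulatory factor, at a distance of 0.30. Socs3, the feedback inhibitor of cytokine receptors, followed at 0.58, then the chemokines Ccl5 at 0.93 and Ccl2 at 0.97 and the early response factor Egr2 at 1.20. Irf1 stood at 1.52, 27.5, 1.40 and 30.9 FPKM in control day 1, DTA day 1, control day 5 and DTA day 5. Socs3 stood at 0.941, 15.4, 1.75 and 31.8.

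For Gadd45g the nearest was Nuak2, a stress-responsive kinase, at a distance of 0.42, with 2.55, 12.6, 2.72 and 7.32 FPKM. The histone H4 genes Hist1h4n and Hist1h4j followed at 0.49 and 0.53, then Map3k14 at 0.54 and the proprotein convertase Pcsk4 at 0.55. Map3k14, the kinase NIK of the alternative NF-kappa B pathway, stood at 4.69, 17.2, 4.33 and 15.8 FPKM. Histone genes belong to a family of near copies, so their values are uncertain.

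**Figure D4:**
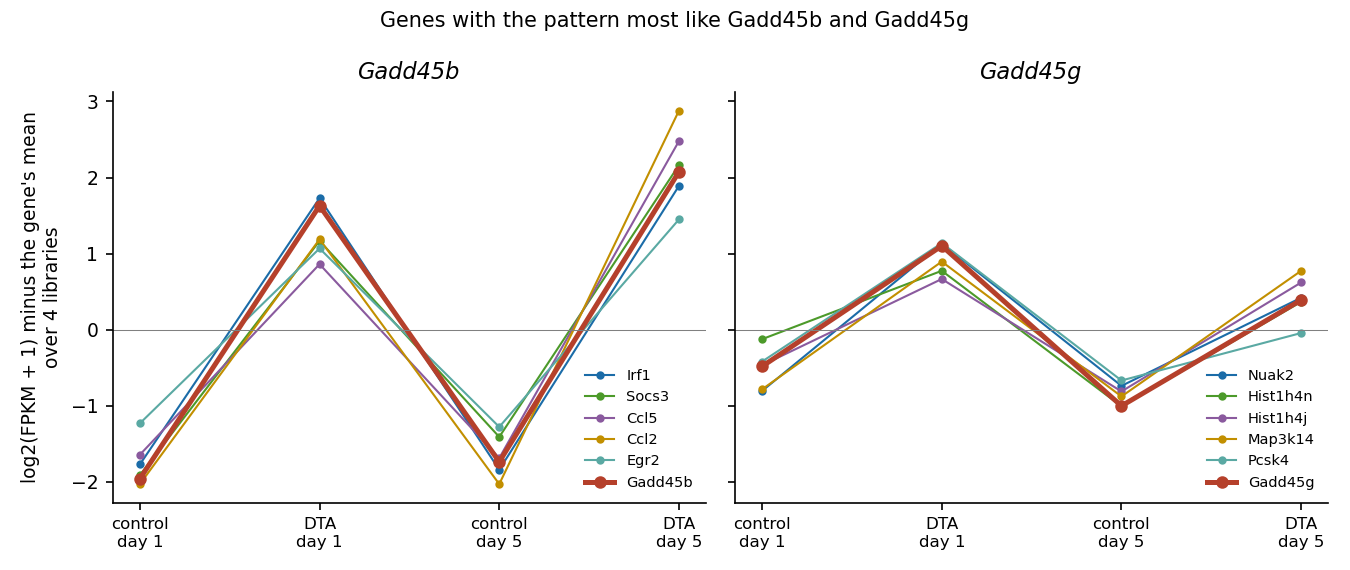
log2(FPKM + 1) minus each gene's mean over the 4 libraries (vertical axis) for Gadd45b and Gadd45g (thick red) and the 5 genes closest to each (thin). Every gene drawn is higher in DTA than in the control of the same day, Irf1 follows Gadd45b at a distance of 0.30 and Nuak2 follows Gadd45g at 0.42.

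Over the 3 libraries that hold them, Gadd45a and Gadd45gip1 had many genes of like pattern, so closeness singles out little. Of 9036 genes 41 lay within a distance of 0.1 of Gadd45a and 206 within 0.1 of Gadd45gip1. Nearest to Gadd45a were Lyrm5 (0.010), the lysosomal thioesterase Ppt1 (0.013), the TFIID subunit Taf13 (0.017), the splicing factor Rnpc3 (0.030) and Amn1 (0.031). Nearest to Gadd45gip1 were the mitochondrial fatty acid synthesis gene Mcat (0.0062), the helicase Ddx31 (0.0091), the poly(A) binding protein Pabpc4 (0.0093), the membrane glycoprotein Pdpn (0.012) and Phf3 (0.016).

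Of the 2 other genes named for growth arrest and DNA damage, 1 was called higher at day 5, beside 6.74% of all genes tested. Ppp1r15a (Gadd34), which restores translation after stress by targeting a phosphatase to eIF2 alpha, stood at 9.003 FPKM in control day 1, 7.81 in control day 5 and 36.8 in DTA day 5, and was called higher with a difference of 2.1. Ddit3 (Gadd153 or CHOP), a stress transcription factor that promotes cell death, stood at 40.9, 53.2, 41.2 and 81.0 FPKM in control day 1, DTA day 1, control day 5 and DTA day 5. Its differences of 0.37 at day 1 and 0.96 at day 5 were not called.

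The kinase arm downstream of Gadd45 proteins showed no call. Of 12 genes, 9 were at 5 FPKM or more at day 5 and none was called higher or lower. The median difference was 0.22 over the 11 measured and 0.22 over those 9. Over all genes at 5 FPKM or more it was 0.26. At day 1 none of 4 was called, with a median of -0.05 over the 5 measured. Map3k4, the kinase that Gadd45 proteins bind, stood at 11.0 FPKM in control day 1, 11.97 in control day 5 and 14.1 in DTA day 5. Map2k7, a JNK activator that Gadd45b can block, stood at 29.97, 33.6 and 34.3 in the same libraries. The p38 gene with the largest difference was Mapk11 (0.91, 4.18 to 8.72 FPKM), while Mapk14 differed by 0.15 and Mapk12 by 0.26. The p38 activators Map2k3 and Map2k6 differed by 0.28 and -0.14, the JNK activator Map2k4 by 0.31, and the JNK genes Mapk8 and Mapk9 by 0.22 and 0.17. Mapk10 has no value here in the other 3 libraries and stood at 9.31 FPKM in DTA day 5. With a pseudocount of 0.1 in place of 1, 1 gene of the list was called higher at day 5. These are transcript levels and say nothing of kinase activity.

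Among the 4 cell cycle partners, 2 were at 5 FPKM or more at day 5 and 1 was called higher. Over all genes tested, 6.74% were called higher. Cdkn1a, which encodes the cell cycle inhibitor p21, stood at 2.71 FPKM in control day 1, 3.65 in control day 5 and 50.8 in DTA day 5, a difference of 3.48. Pcna, the sliding clamp of DNA replication, stood at 40.4, 31.7 and 47.9, a difference of 0.58. Cdk1 and Ccnb1, the mitotic kinase and its cyclin, stayed under 1 FPKM in every library, with 0.424 and 0.697 in DTA day 5.

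The 9 genes of DNA demethylation and repair had no call at either day, with 5 at 5 FPKM or more at day 5 and 1 at day 1. Their median day 5 difference was 0.22 over the 9 measured and 0.27 over the 5 at 5 FPKM or more. Over all genes at 5 FPKM or more it was 0.26. Ercc5, the XPG nuclease of excision repair, differed most, at 7.71 FPKM in control day 5 and 12.3 in DTA day 5 (0.62). Taf12 differed by 0.40, Ing1 by 0.27, the 5-methylcytosine oxidase Tet3 by 0.22 and Tet2 by -0.41.

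Of 12 transcription factors known to act on Gadd45 genes, 9 were at 5 FPKM or more at day 5. Of these, 5 were called higher and none lower, beside 6.74% higher and 1.77% lower over all genes tested. The median difference of the list was 1.06 over the 11 measured and over the 9, beside 0.26 over all genes at 5 FPKM or more. Egr1, an immediate early factor, stood at 36.0 FPKM in control day 1, 7.75 in control day 5 and 133 in DTA day 5. Its day 5 difference was 3.94, and against the day 1 control it was 1.85, smaller than the difference of -2.08 between the controls. Atf4, the factor of the integrated stress response, stood at 107, 105 and 515 FPKM (2.28). Trp53, which encodes p53, stood at 5.67, 9.40, 5.14 and 13.2 FPKM in control day 1, DTA day 1, control day 5 and DTA day 5, with differences of 0.64 and 1.21. Myc differed by 1.96 but stood at 3.56 FPKM in DTA day 5, under the floor. The NF-kappa B genes Nfkb1 (1.06) and Rela (1.16) were called, a call that ended for both under median ratio scaling (0.87 and 0.96) and with a pseudocount of 5 (0.70 and 0.93). The call of Trp53 ended with a pseudocount of 5 as well (0.84). Stat3 has no estimate in DTA day 5.

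Of 19 p53 target genes, 14 were at 5 FPKM or more at day 5. Of these, 7 were called higher and none lower, beside 6.74% higher and 1.77% lower over all genes tested. The list median was 0.79 over the 19 measured and 0.83 over the 14, beside 0.26 over all genes at 5 FPKM or more. The 7 called were Cdkn1a, Aen (2.23), Phlda3 (2.14), Bbc3 (1.79), Ccng1 (1.64), Bax (1.22) and Mdm2 (1.02). Cdkn1a is also counted among the cell cycle partners. Aen, an apoptosis-enhancing nuclease, stood at 5.32 FPKM in control day 5 and 28.7 in DTA day 5, and Bbc3, the cell death gene Puma, at 0.938 and 5.69. Mdm2 was no longer called under either scaling (0.82 and 0.86) or against the other control (0.98), and Bbc3 was not called with a pseudocount of 5 (0.85). Gadd45a, itself a p53 target, had a difference of 0.46, below the median of this list. At day 1 none of 6 was called, with a median of 0.01 over 7 measured and Phlda3 at 0.76.

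The mitochondrial ribosome gives the setting for Gadd45gip1. Of 51 other genes of its large subunit, 2 were called higher at day 5, Mrpl2 (1.07) and Mrpl38 (1.04), and none lower, and both calls ended under median ratio scaling (0.86 and 0.83). Differences ranged from -0.48 to 1.07, and 49 of 51 were above 0. The median was 0.40 over the 51 and 0.43 over the 46 at 5 FPKM or more. Over all genes at 5 FPKM or more the median was 0.26 and 74.6% were above 0. The 2 calls among the 46 stand beside 6.74% called higher over all genes tested. Only Mrpl2 and Mrpl38 exceeded the 0.90 of Gadd45gip1, with Mrpl9 and Mrpl39 next at 0.89 each. At day 1 none of 15 was called and the median was 0.13 over 16 measured.

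**Figure D5:**
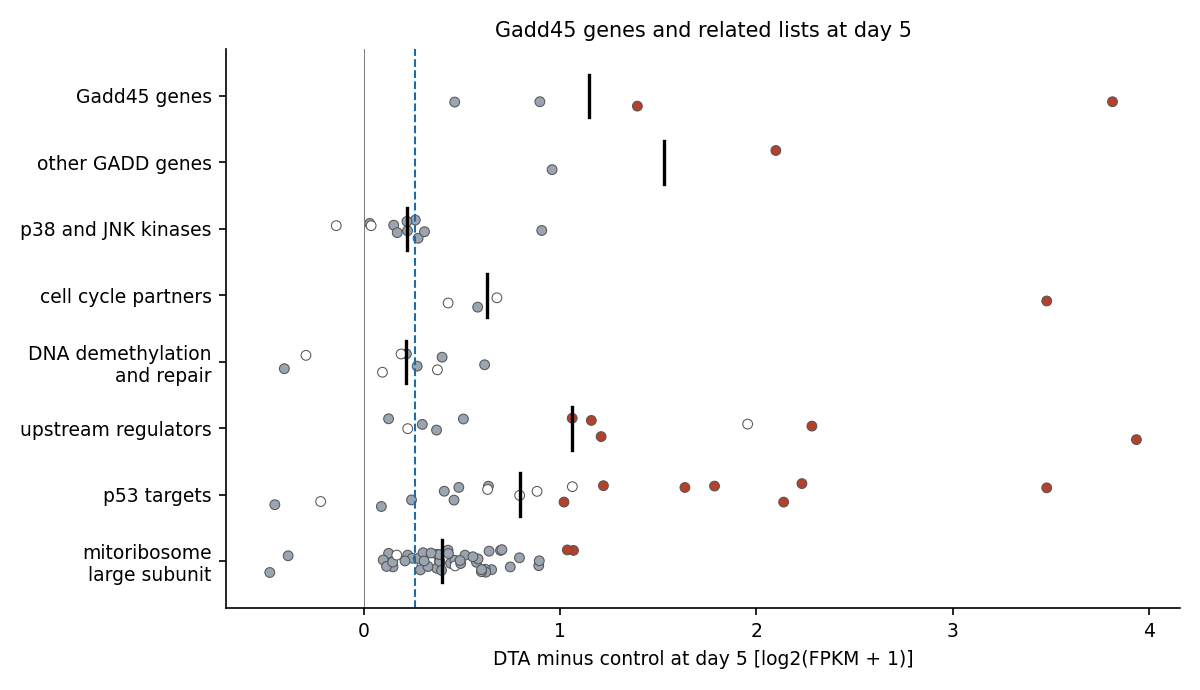
Day 5 difference between DTA and control in log2(FPKM + 1) (horizontal axis) for each gene of the Gadd45 set and 7 related lists (points spread vertically at random within a list): red, called higher; grey, not called; white, under 5 FPKM in both libraries. Black bars are list medians, white points included. The blue dashed line is the median of all genes at 5 FPKM or more, 0.26. The kinase median is 0.22, and Gadd45b lies at 3.82.

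Cell type markers differed between these whole-retina libraries, and their part in the Gadd45 values was not tested. In bulk tissue, fewer cells of a type and less RNA per cell cannot be told apart. Markers of rods, the most numerous retinal cells, summed to 15361 FPKM in control day 1, 18989 in control day 5 and 5956 in DTA day 5 over 14 genes, with 9 of 14 called lower at day 5. The 4 rod genes measured in all libraries summed to 3598 and 3630 FPKM in control and DTA at day 1. Pde6g and Sag made up most of that sum, and Reep6 stood at 473 in control and 296 in DTA (-0.67, not called). Microglial markers summed to 29.2 FPKM in each control and 185 in DTA day 5, with 10 of 13 called higher. Itgam, P2ry12 and Tmem119 were under 5 FPKM, with day 5 differences of 1.48, 0.17 and 0.68. The 2 microglial markers measured at day 1 (Fcer1g and Cd68) summed to 1.97 in control and 3.06 in DTA. Müller glia markers summed to 1713, 1397 and 567 FPKM over 10 genes in control day 1, control day 5 and DTA day 5, and the 4 measured at day 1 to 1110 in control and 607 in DTA. Glul made up most of these sums in the controls and in DTA day 1, with 1044 FPKM in control day 1 and 550 in DTA day 1. At day 5, 2 of the 10 were called lower (Glul and Rlbp1) and 1 higher (Vim, 1.20), and at day 1 none of 4 was called lower and 1 higher (Sox9, 1.05). Genes of reactive gliosis, Socs3 among them, were called higher for 3 of 3 measured at day 1 and 9 of 9 at day 5. The gliosis and microglial counts follow in part from the floor, since most of these genes reached 5 FPKM only in DTA. In a control, 3 of the 10 gliosis genes and 1 of the 13 microglial markers reached it. Over all genes tested, 2.06% were called higher and 0.61% lower at day 1, and 6.74% and 1.77% at day 5. The marker lists were chosen with earlier results of these data known. Markers of T cells, B cells, neutrophils and monocytes summed to 0.284, 0.204 and 1.38 FPKM over 9 genes, and Cd3e, Cd3g and S100a9 were listed at 0 in all 3 libraries.

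Neighbouring tissue also differed. Lens markers summed to 2399 FPKM in control day 1, 334 in control day 5 and 21.0 in DTA day 5 over 17 genes, and pigment epithelium markers to 180, 51.5 and 24.2 over 12. Gadd45a and Gadd45g were lower in control day 5 than in control day 1, as these markers were. At day 5 the lens markers were lower in DTA, while all 4 Gadd45 genes were above their control, Gadd45a (0.46) and Gadd45gip1 (0.90) without a call. At day 1 the 8 lens genes measured in all libraries summed to 982 FPKM in control and 1864 in DTA. The higher sum lay in Cryga, Crygb, Crygc and Crygd, with differences of 2.14, 1.26, 1.11 and 1.29. Lgsn differed by 0.35, Cryba2 by 0.17, Cryba1 by -0.05 and Mip by -0.01. None of the 7 at 5 FPKM or more was called, as each differed more between the controls. Over all genes tested 2.06% were called higher at day 1. Gadd45b and Gadd45g were higher in DTA at day 1. Whether the Gadd45 differences contain a share from these tissues was not tested. With 1 library per group, a like or unlike direction does not decide it.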

How the data were processed

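RNA-seq of whole retina gave 4 libraries, 1 per group. Per the labels' protocols, Sepazol served for extraction and an Illumina mRNA-seq sample kit for the libraries. The authors deposited FPKM per gene with lower and upper bounds and a status, per the file headers. Build mm9, Cufflinks 2.1.1, bcl2fastq 1.8.4 and CASAVA 1.8.2 are listed in the submitters' processing notes, which state no aligner or annotation. FPKM is relative to the library, so fewer rod transcripts raise all others.

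Lines with status FAIL or HIDATA were read as missing, and several loci of a symbol were summed. The day 1 DTA file holds 5847 lines, the others 23021. File starts count from 0, so 1 was added. Differences are of log2(FPKM + 1). The size rule was tested on data simulated with counting noise only, which hold no spread between mice. Depth, read from low FPKM of genes with 1 transcript over 1500 bases as single fragments, was about 74200000, 99100000, 35600000 and 28900000 fragments (control day 1, DTA day 1, control day 5, DTA day 5).

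The members, lists and rules were chosen with earlier results of these data known. Named were every member, all genes at 5 FPKM or more of 4 lists (other GADD genes, kinases, partners, demethylation), up to 4 with the largest day 5 difference in the other lists, and the 5 genes most alike to each member, small RNA and model-name genes left out; other genes named were chosen after their values were seen. Alternatives were pseudocounts of 0.1 and 5, other controls, 2 scalings, other floors, the authors' bounds and no requirement on the controls. Tools were Python 3.11.15, pandas 2.3.3, Biopython 1.88 and blastn 2.17.0. One result that bears on the precision of Gadd45gip1 is not reported here.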

Additional observations from a re-analysis of the deposited data

How the results depend on the processing

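No library could be left out, since each group has 1. No paired analysis was possible because each group holds 1 library. Both members called at day 1 stayed called under each alternative, Gadd45b between 2.78 and 3.89 and Gadd45g between 1.30 and 2.11. For Gadd45g at day 1 the authors' bounds are a weak check, as its control FPKM of 9.73 lay above its upper bound of 9.14. At day 5 Gadd45b stayed between 3.08 and 4.07. Gadd45g was no longer called against the control of the other day (0.87) or with the authors' bounds (0.96), so that 1 member in place of 2 was called under each; against the other control Gadd45a turned to -0.19. Exchanging the controls also moved the day 5 minus day 1 difference of Gadd45g to -1.23, so that 1 member in place of 0 was called there. The control difference of Gadd45gip1 turned from -0.015 to 0.041 under the median ratio and 0.049 under the sum without photoreceptor markers and abundant genes. Gadd45gip1 stayed uncalled, between 0.68 and 0.94 at day 5. Over the 7 related lists 15 genes were higher at day 5 as reported, 8 with a pseudocount of 5 and 8 with the authors' bounds; none was lower. Over all genes, calls at day 5 numbered 842 as reported, 472 with a pseudocount of 5 and 414 with the bounds, and at day 1 70, 46 and 23; between the controls they were 240 as reported and 51 with the bounds, and between the toxin libraries 169 and 76. A pseudocount of 5 lowered the day 5 medians of low-level lists, to 0.31 for p53 targets, 0.70 for upstream factors and 0.35 for cell cycle partners (2.02 with a pseudocount of 0.1). A larger pseudocount understates the change of low genes more, so these medians depend on that setting. Depth limits the low controls of Gadd45b most, at an estimated 195 fragments in control day 5.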
